A study of Mus musculus with 23 samples.

Results

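Brush-border disaccharidases and peptidases are 9 genes of the enzymes that finish the digestion of sugars and proteins on the surface of the small intestine. Sis, Lct, Mgam and Treh encode the glycosidases, and Anpep, Enpep, Dpp4, Mep1a and Mep1b encode the peptidases. They were found by matching their symbols to NCBI Gene numbers. All 9 were among the 19215 entries of the expression table, and all 9 were among the 11337 genes that were tested, whose mean over the libraries was 1 FPKM or more. FPKM scales the sequenced fragments of a gene to its length and to the size of the library, so levels can be compared between genes.

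The study examined whether transfer of gut microbiota from donors dosed with alginate oligosaccharides (AOS) changes the small intestine of mice injured by the anticancer drug busulfan. RNA of small intestine of ICR mice was sequenced in 23 libraries. All groups received busulfan at 40 mg/kg, the saline group included, so no library of an untreated mouse was analysed here. The saline group is Sa. Con-FMT received small intestinal content pooled from donors given water, A10-FMT from donors given AOS at 10 mg/kg, and A100-FMT from donors given AOS at 100 mg/kg. The sample names write the transfer groups as IMC, IMA10 and IMA100, which were read as these 3 groups of the study. They also divide the libraries into set 1 and set 2. The meaning of this code is not explained in the sources used here. The study's methods describe 1 schedule, with male mice aged 3 weeks at the busulfan injection, 1 week of daily transfer and sampling at an age of 5 weeks. Neither the methods nor the sample records say which set it applies to. In the annotation of the samples used here it is listed for set 1 only, and no comparison uses it. Each group had 3 libraries in each set, except Sa in set 1 with 2. The records do not state that each library came from a different mouse, so the p-values measure the spread between these samples. The content of the donors was pooled within each donor group, so the libraries do not replicate the donors.

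These enzymes sit in the microvillus membrane of absorptive enterocytes, with their active sites facing the lumen. Sucrase-isomaltase (Sis) and maltase-glucoamylase (Mgam) release glucose from sucrose, maltose and starch fragments, lactase (Lct) splits milk sugar, and trehalase (Treh) splits trehalose. The peptidases shorten dietary peptides, which are then taken up as amino acids, dipeptides and tripeptides. Most of these genes are switched on as enterocytes leave the crypt and climb the villus, so their levels are commonly read as marks of mature enterocytes.

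One library has to be described before the values. A Sa sample of set 1 is numbered 3 in its title, but its description points to the column numbered 2. Values here follow the title, and those under the description are added where they matter. Read by its title, this library departed from the others along GC content. Over genes, which are not independent replicates, the departure and GC content had a Spearman's rho of 0.69. Elsewhere this rho lay between -0.22 and 0.22. The 9 genes followed it. Sis, with a GC content of 40.5%, had a log2 level of -1.79 relative to the median of the other libraries, and Dpp4, with 42.2%, had -1.36. Treh, with 53.7%, had -0.09. Spearman's rho across the 9 genes was 0.90. For the comparisons with Sa of set 1, the calls are therefore also given without this library, which leaves 1 Sa library that is assumed to vary like the other groups.

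**Figure D1:**
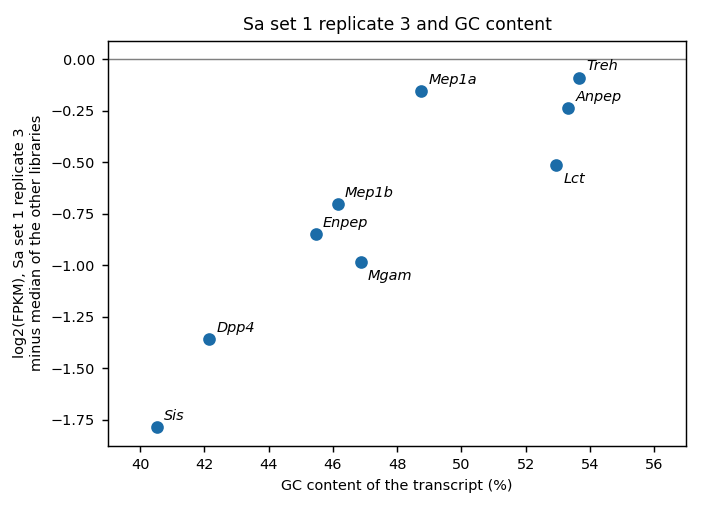
GC content of the transcript (horizontal, percent) against the log2 FPKM of Sa set 1 replicate 3 minus the median of the other 22 libraries (vertical), with 1 point per gene. The points climb from Sis at -1.79 to Treh at -0.09.

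The label of the tissue was checked against marker genes. Markers of the epithelium (Krt8 with a mean of 2533 FPKM) and of enterocytes (Apoa1 with 2341 FPKM) were abundant. Defining markers of the wall of the intestine were at or near 0. The 6 smooth muscle genes summed to 0.81 to 2.09 FPKM per library, with Tagln the most abundant at 1.24 FPKM. The 5 fibroblast genes summed to 0.04 to 0.92 FPKM, the 3 endothelium genes in the table to 0.03 to 0.23 FPKM, the 5 macrophage genes to 1.05 to 2.75 FPKM, and the 5 B and plasma cell genes to 0.19 to 1.10 FPKM. T cell genes were measurable, with a sum of 35.02 to 206 FPKM per library over 6 genes, of which Gzma was the most abundant (a mean of 48.9 FPKM).

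The 9 genes together made up 0.289% to 0.642% of the FPKM of a library. Anpep was far above the others, with a mean of 1573 FPKM, and ranked 30 among all genes tested. Mep1b (249 FPKM), Enpep (237 FPKM), Sis (206 FPKM) and Mgam (138 FPKM) followed. Lct (82.9 FPKM), Treh (71.5 FPKM), Dpp4 (67.7 FPKM) and Mep1a (31.2 FPKM) were lower. The A10-FMT group held many of the extreme levels. In set 1 it had the highest level of all 8 groups for Lct, Treh, Anpep, Enpep, Dpp4 and Mep1b. In set 2, with the title's column for Sa, it had the lowest level of the 8 groups for Lct, Treh, Anpep and Mep1a. Sa of set 1 had the lowest mean of Sis, Mgam, Enpep, Dpp4 and Mep1b. Its replicate 3, the library that stands apart, was the lowest library for each of these genes. Sis and Mgam had neither extreme in A10-FMT, with their highest means in Sa of set 2 and in Con-FMT of set 1.

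**Figure D2:**
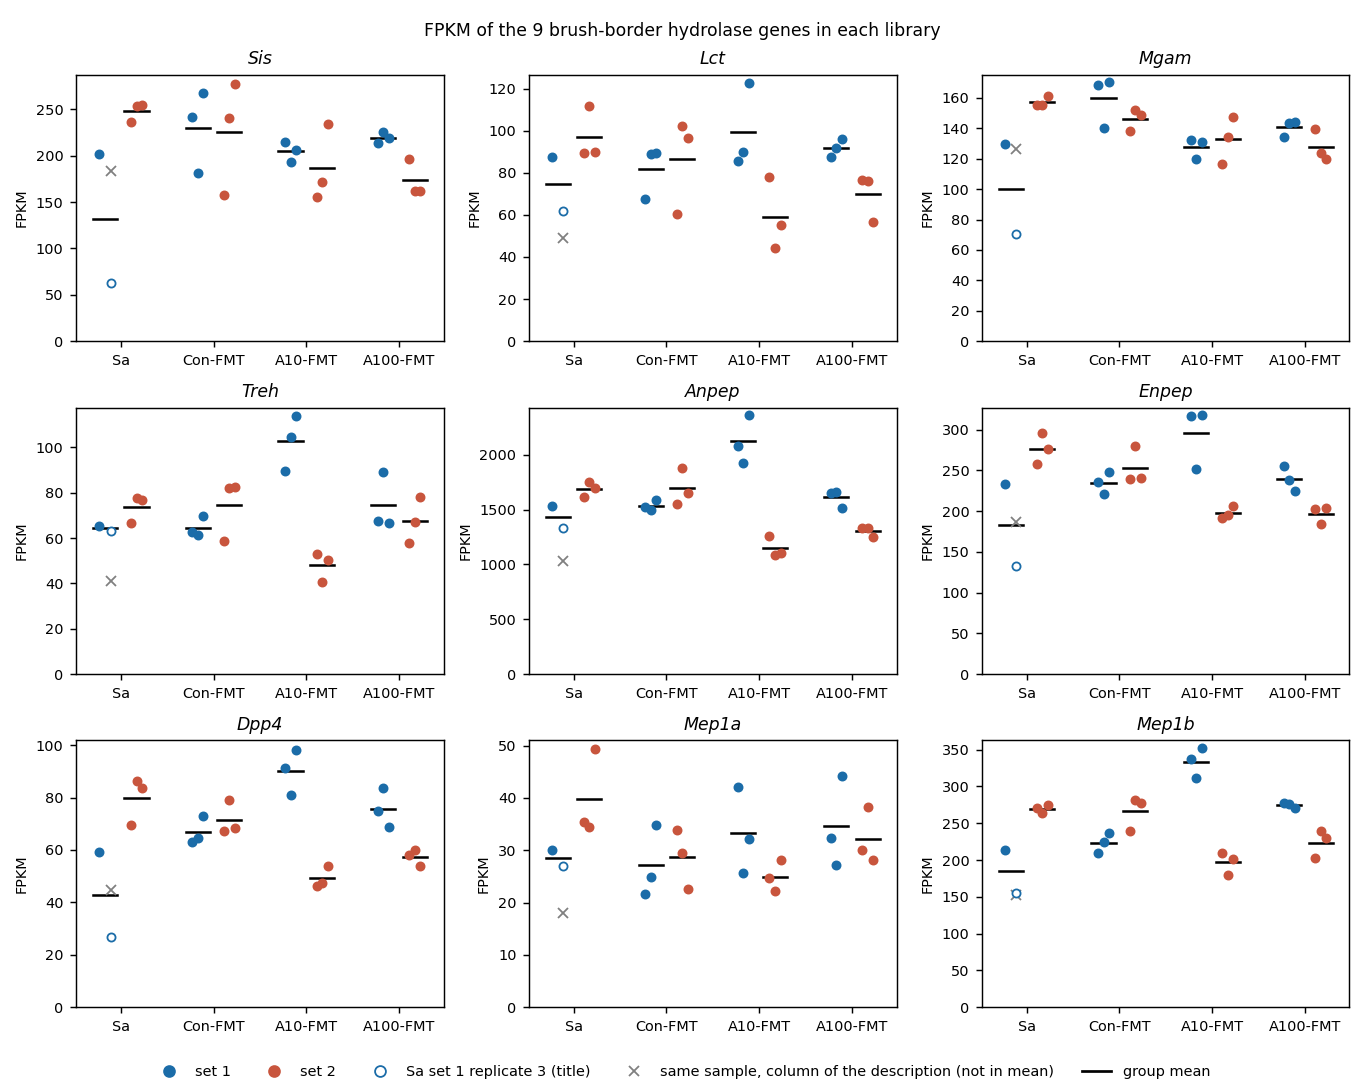
FPKM (vertical, from 0) of each gene in each library, by treatment (horizontal) and set (blue set 1, red set 2), with bars for group means. For Treh, Anpep and Mep1b, all A10-FMT libraries of set 1 lie above every other library, and those of set 2 lie among the lowest.

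Among the glycosidases, Treh differed the most between groups. This enzyme has trehalose, a sugar of fungi and insects, as its only known dietary substrate. In set 1, Treh was 65.4 and 63.3 FPKM in Sa, 62.9, 61.1 and 69.8 FPKM in Con-FMT, 89.7, 104 and 114 FPKM in A10-FMT, and 67.7, 89.2 and 66.8 FPKM in A100-FMT. In set 2, the values were 66.7, 77.5 and 76.6 FPKM in Sa, 58.8, 82.0 and 82.5 FPKM in Con-FMT, 53.0, 40.5 and 50.2 FPKM in A10-FMT, and 57.9, 67.1 and 78.3 FPKM in A100-FMT. All A10-FMT libraries of set 1 were above, and all A10-FMT libraries of set 2 below, the 17 libraries of the other groups. For set 2 this holds only with the title's column. The description's column gave 41.2 FPKM for the Sa sample of set 1, within the A10-FMT range of set 2. The mean was 103 ± 12.2 FPKM (SD, n = 3) in A10-FMT of set 1 and 47.9 ± 6.54 FPKM (SD, n = 3) in A10-FMT of set 2. The groups between these extremes overlapped with their neighbours in the order of the means.

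Lct had the same highest and lowest groups as Treh, with more spread. In set 1, Lct was 87.5 and 61.7 FPKM in Sa, 67.8, 88.8 and 89.6 FPKM in Con-FMT, 85.8, 90.1 and 123 FPKM in A10-FMT, and 87.4, 91.8 and 96.2 FPKM in A100-FMT. Set 2 gave 89.2, 112 and 90.0 FPKM in Sa, 60.6, 102 and 96.3 FPKM in Con-FMT, 78.2, 44.0 and 55.4 FPKM in A10-FMT, and 76.6, 76.1 and 56.5 FPKM in A100-FMT. Of the 7 steps in the order of its group means, none was free of overlap, while the highest group, A10-FMT of set 1, and the lowest, A10-FMT of set 2, did not overlap.

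Sis, the most abundant of the glycosidases, stayed in 1 range in all libraries but 1. In set 1, Sis was 202 and 62.3 FPKM in Sa, 242, 182 and 268 FPKM in Con-FMT, 215, 194 and 206 FPKM in A10-FMT, and 214, 226 and 219 FPKM in A100-FMT. The set 2 libraries had 237, 254 and 255 FPKM in Sa, 158, 241 and 277 FPKM in Con-FMT, 156, 171 and 234 FPKM in A10-FMT, and 196, 162 and 162 FPKM in A100-FMT. The value of 62.3 FPKM belongs to the library that stands apart, and the description's column for the same sample gave 184 FPKM. Without that library, Sis ranged from 156 to 277 FPKM. None of the 7 pairs of neighbours in the order of its group means was free of overlap.

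Mgam, which shares its main substrates with Sis, followed it closely. Over the 22 libraries other than Sa set 1 replicate 3, the Pearson correlation of log2(FPKM + 1) between both genes was 0.81. In set 1, Mgam was 129.7 and 70.8 FPKM in Sa, 169, 140.4 and 170.4 FPKM in Con-FMT, 132, 119.5 and 131 FPKM in A10-FMT, and 134, 144 and 144 FPKM in A100-FMT. In set 2, levels were 155, 155 and 161 FPKM in Sa, 138, 152 and 149 FPKM in Con-FMT, 116, 134 and 147 FPKM in A10-FMT, and 139, 124 and 119.5 FPKM in A100-FMT. In set 1 the A10-FMT libraries were all below the Con-FMT libraries, the opposite of Treh.

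Sequences upstream of these genes were compared, to set Sis and Mgam, which varied together, beside Treh and Dpp4, whose group means had their highest value in A10-FMT of set 1. Windows of 250 bases before to 50 bases after the start site came from RefSeq, build GRCm38.p6, and were given for 8 of the 9 genes. Mep1b had no entry. Exact matches on both strands were sought for TTTAT (bound by CDX factors), GTTAAT (an HNF1 half-site), AGATAA (bound by GATA factors), CAAAGT (an HNF4 core) and TATAAA (the TATA box, which on the reverse strand contains TTTAT). The CDX motif was present in 6 of the 8 windows, compared with 40% of all 32851 windows in the table. AGATAA was present in 3 (11.2% of all), TATAAA in 4 (13.6% of all), CAAAGT in 2 (14.4% of all) and GTTAAT in 1 (7.1% of all). The windows of Sis (chr3:72967814-72968113, minus strand), Mgam (chr6:40628581-40628880, plus strand), Treh (chr9:44672983-44673282, plus strand) and Dpp4 (chr2:62412182-62412481, minus strand) are printed 5′ to 3′ along the gene, with the matches in capitals.
Sis: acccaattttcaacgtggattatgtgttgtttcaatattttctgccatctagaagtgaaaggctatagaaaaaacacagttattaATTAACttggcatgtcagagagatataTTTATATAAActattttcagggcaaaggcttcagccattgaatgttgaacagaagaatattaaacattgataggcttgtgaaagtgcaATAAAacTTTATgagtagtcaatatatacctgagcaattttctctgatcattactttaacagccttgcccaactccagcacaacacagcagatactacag
Mgam: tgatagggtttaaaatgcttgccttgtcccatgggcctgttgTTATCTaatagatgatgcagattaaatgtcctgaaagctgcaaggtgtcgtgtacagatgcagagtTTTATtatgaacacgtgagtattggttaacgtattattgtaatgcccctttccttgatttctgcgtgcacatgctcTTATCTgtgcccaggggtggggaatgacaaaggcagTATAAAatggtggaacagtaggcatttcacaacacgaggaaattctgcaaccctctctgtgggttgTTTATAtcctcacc
Treh: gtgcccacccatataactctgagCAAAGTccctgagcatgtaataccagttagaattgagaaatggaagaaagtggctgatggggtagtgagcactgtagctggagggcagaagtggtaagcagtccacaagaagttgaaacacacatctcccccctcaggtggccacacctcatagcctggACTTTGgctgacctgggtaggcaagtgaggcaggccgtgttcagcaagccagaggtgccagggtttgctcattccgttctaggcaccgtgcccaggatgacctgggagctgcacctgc
Dpp4: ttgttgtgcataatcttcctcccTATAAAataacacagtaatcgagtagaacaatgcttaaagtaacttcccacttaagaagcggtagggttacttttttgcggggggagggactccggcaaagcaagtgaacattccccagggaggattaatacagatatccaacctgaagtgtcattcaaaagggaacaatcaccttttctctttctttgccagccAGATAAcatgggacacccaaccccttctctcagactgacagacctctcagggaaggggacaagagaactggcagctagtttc
Sis had 4 matches to TTTAT, 2 to TATAAA and 1 to GTTAAT. Mgam had 3 to TTTAT, 2 to TATAAA and 2 to AGATAA. Treh had none of these and 2 to CAAAGT, which was absent from Sis, Mgam and Dpp4. Dpp4 had 1 match to each of the CDX, TATA box and GATA motifs. Such matches describe letters in a window and not bound sites.

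Anpep, aminopeptidase N, takes single amino acids from the start of peptides and was the most abundant of the 9 genes. In set 1, Anpep was 1531 and 1330.0 FPKM in Sa, 1520.0, 1497 and 1587 FPKM in Con-FMT, 2076, 1927 and 2363 FPKM in A10-FMT, and 1654, 1664 and 1516 FPKM in A100-FMT. The libraries of set 2 held 1612, 1750.0 and 1696 FPKM in Sa, 1553, 1874 and 1647 FPKM in Con-FMT, 1263, 1089 and 1108 FPKM in A10-FMT, and 1332, 1334 and 1246 FPKM in A100-FMT. The A10-FMT libraries of set 1 lay above every other library, and those of set 2 held the 2 lowest values, with 1263 FPKM within the A100-FMT range of set 2. The description's column gave 1033 FPKM for the Sa sample of set 1, which is below all of these values. From the highest to the lowest mean, the order was 2122 ± 222 FPKM in A10-FMT of set 1, 1692 ± 165 FPKM in Con-FMT and 1686 ± 69.5 FPKM in Sa of set 2, and 1611 ± 82.9 FPKM in A100-FMT and 1535 ± 46.7 FPKM in Con-FMT of set 1 (SD, n = 3 each). Sa of set 1 (1430 ± 142 FPKM, SD, n = 2), A100-FMT (1304 ± 50.4 FPKM) and A10-FMT of set 2 (1153 ± 95.6 FPKM, SD, n = 3 each) closed the order. Only the first step was free of overlap.

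Mep1b encodes the beta subunit of meprin, a metalloprotease anchored in the membrane. In set 1, Mep1b was 214 and 155 FPKM in Sa, 210.1, 225 and 236 FPKM in Con-FMT, 337, 312 and 353 FPKM in A10-FMT, and 277, 276 and 271 FPKM in A100-FMT. Values of set 2 were 270.2, 264 and 274 FPKM in Sa, 239.7, 282 and 277 FPKM in Con-FMT, 210.1, 179 and 202 FPKM in A10-FMT, and 203, 239 and 229 FPKM in A100-FMT. The A10-FMT libraries of set 1 were again the 3 highest of all. In set 1 the A100-FMT libraries lay between Con-FMT and A10-FMT without overlapping either.

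Dpp4 encodes dipeptidyl peptidase 4, which removes dipeptides ending in proline or alanine and also inactivates incretin hormones. In set 1, Dpp4 was 59.1 and 26.8 FPKM in Sa, 62.9, 64.4 and 72.9 FPKM in Con-FMT, 91.1, 80.8 and 98.2 FPKM in A10-FMT, and 74.8, 83.5 and 68.8 FPKM in A100-FMT. In set 2, FPKM values read 69.6, 86.2 and 83.6 FPKM in Sa, 67.2, 79.2 and 68.5 FPKM in Con-FMT, 46.3, 47.5 and 53.9 FPKM in A10-FMT, and 58.3, 60.0 and 53.9 FPKM in A100-FMT. The A10-FMT libraries of set 1 were above those of Con-FMT, and those of set 2 were below both Sa and Con-FMT.

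Enpep encodes glutamyl aminopeptidase, which removes acidic residues and also acts on angiotensin. In set 1, Enpep was 234 and 133 FPKM in Sa, 236, 221 and 248 FPKM in Con-FMT, 317, 252 and 318 FPKM in A10-FMT, and 255, 238 and 225 FPKM in A100-FMT. The set 2 values were 257, 296 and 277 FPKM in Sa, 239, 279.9 and 241 FPKM in Con-FMT, 191, 195 and 206 FPKM in A10-FMT, and 203, 184 and 204 FPKM in A100-FMT. In set 2 the A10-FMT and A100-FMT libraries shared a range that lay below all Sa and Con-FMT libraries.

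Mep1a, the alpha subunit of meprin, was the lowest of the peptidases. In set 1, Mep1a was 30.0 and 27.0 FPKM in Sa, 21.6, 24.9 and 34.9 FPKM in Con-FMT, 42.0, 25.6 and 32.1 FPKM in A10-FMT, and 32.4, 27.3 and 44.3 FPKM in A100-FMT. Set 2 held 35.4, 34.5 and 49.4 FPKM in Sa, 33.8, 29.5 and 22.6 FPKM in Con-FMT, 24.6, 22.1 and 28.1 FPKM in A10-FMT, and 30.0, 38.2 and 28.2 FPKM in A100-FMT. None of the 7 pairs of neighbours in the order of its group means was free of overlap, and Mep1b exceeded Mep1a in every library.

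The dose of AOS given to the donors was addressed by comparing the transfer groups with each other. In set 1, RNA of Treh, Anpep and Mep1b was increased in A10-FMT vs. Con-FMT, while Sis and Mgam were not called. In such tissue RNA, a change in the share of enterocytes and a change in RNA per enterocyte cannot be told apart. Changes are given on the log2(FPKM + 1) scale with the standard error. Adjusted p-values are from limma with Benjamini-Hochberg adjustment over the 11337 genes, and a change was called at an adjusted p under 0.05. Treh rose (0.66 ± 0.15, adjusted p = 0.00609), and so did Mep1b (0.57 ± 0.10, adjusted p = 0.00134) and Anpep (0.46 ± 0.08, adjusted p = 0.00194). These 3 of 9 genes compare with 5.20% of all tested genes that were called higher. Enpep (0.32 ± 0.14, adjusted p = 0.125), Dpp4 (0.43 ± 0.18, adjusted p = 0.114), Lct (0.27 ± 0.22, adjusted p = 0.422) and Mep1a (0.28 ± 0.21, adjusted p = 0.386) were not called. Sis (-0.15 ± 0.29, adjusted p = 0.764) and Mgam (-0.32 ± 0.15, adjusted p = 0.142) had negative changes. For 5 of the 9 genes, all A10-FMT libraries were above all Con-FMT libraries, compared with 12.2% of all genes, and for Mgam they were all below, compared with 29.8%. The median change was 0.32 for the 9 genes and -0.08 for all genes tested.

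The calls of Treh and Mep1b were kept under all 34 alternative settings, with changes of 0.37 to 0.75 in Treh and 0.29 to 0.66 in Mep1b. The call of Anpep was lost with quantile normalization (0.22, adjusted p = 0.206). A100-FMT vs. Con-FMT in set 1 gave no call among the 9 genes, where limma called 0.406% of all genes. Mep1b (0.30 ± 0.10, adjusted p = 0.236) alone had an unadjusted p under 0.05, and it was also the 1 gene above Con-FMT without overlap, compared with 11.5% of all genes. In A100-FMT vs. A10-FMT, Anpep fell by 0.39 ± 0.08 on the log2 scale (adjusted p = 0.0161), where 1.71% of all genes were called lower. Without overlap, 3 of the 9 were below A10-FMT (8.37% of all genes) and 1 above (28.1% of all genes). The call of Anpep was lost with quantile normalization (adjusted p = 0.331), with the groups fitted alone (adjusted p = 0.0694) and without replicate 3 of A10-FMT (adjusted p = 0.0725) or of A100-FMT (adjusted p = 0.101).

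In set 2 Anpep moved in the opposite direction. It fell in A10-FMT vs. Con-FMT by 0.55 ± 0.08 on the log2 scale (adjusted p = 0.0315) and was the only member called, where 0.370% of all genes were called lower. All 9 genes had negative changes, among them Treh (-0.62 ± 0.15, adjusted p = 0.0669), Lct (-0.54 ± 0.22, adjusted p = 0.314), Dpp4 (-0.53 ± 0.18, adjusted p = 0.222), Mep1b (-0.43 ± 0.10, adjusted p = 0.0583) and Enpep (-0.35 ± 0.14, adjusted p = 0.308). Mgam had the smallest (-0.14 ± 0.15, adjusted p = 0.752). The median was -0.43, against 0.05 for all genes tested. For 5 of the 9, the A10-FMT libraries were all below the Con-FMT libraries, compared with 8.30% of all genes. The call of Anpep was lost in 7 of 34 settings, among them a replicate block (adjusted p = 0.0534), the groups fitted alone (adjusted p = 0.138) and leaving out A10-FMT replicate 2 (-0.51, adjusted p = 0.25). The distance between the 2 Sa libraries of set 1 enters the spread that all groups share. Without Sa set 1 replicate 3, and likewise without replicate 1, the comparisons between transfer groups gave 7 member calls in set 2 in place of 1 and 10 in set 1 in place of 4, among them, without replicate 3, Treh (-0.62, adjusted p = 0.0424) and Mep1b (-0.43, adjusted p = 0.0101) in A10-FMT vs. Con-FMT of set 2. Calls of all genes also rose. Without replicate 3, 6 members and 32.9% of all genes were called in either direction in A10-FMT vs. Con-FMT of set 1, 4 and 20.6% in A100-FMT vs. A10-FMT of set 1, 5 and 2.43% in A10-FMT vs. Con-FMT of set 2, and 2 and 2.59% in A100-FMT vs. Con-FMT of set 2.

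With A100-FMT no gene of the 9 was called against Con-FMT in set 2, where limma called 0 of all genes and 3 of the 9 (Anpep, Enpep and Mep1b) had an unadjusted p under 0.05. The change was -0.37 ± 0.08, adjusted p = 0.149 in Anpep and -0.36 ± 0.14, adjusted p = 0.345 in Enpep. For 4 of the 9, the A100-FMT libraries were all below, compared with 6.49% of all genes. Between A100-FMT and A10-FMT no member was called in set 2 (limma called 0.00882% of all genes), 2 had an unadjusted p under 0.05 (Treh and Anpep), and 2 were above A10-FMT without overlap, compared with 9.53% of all genes. Treh had the largest of these changes (0.49 ± 0.15, adjusted p = 0.368).

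**Figure D3:**
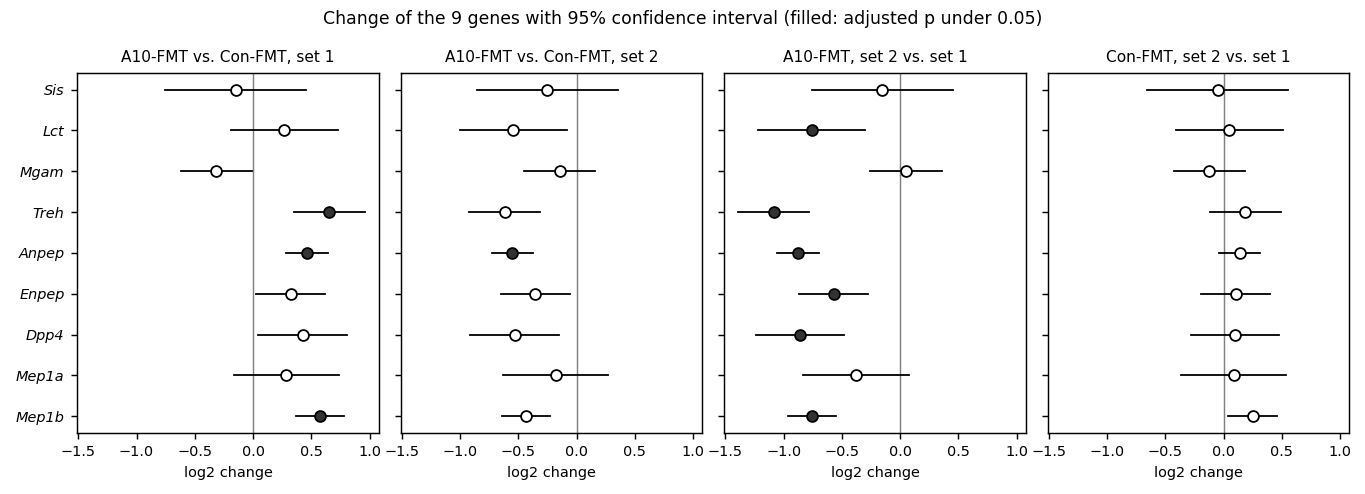
Log2 change (horizontal) with its 95% confidence interval for each gene in 4 comparisons, with filled points at an adjusted p under 0.05 in limma. Treh, Anpep and Mep1b lie to the right in set 1 (0.66, 0.46 and 0.57) and to the left in set 2 (-0.62, -0.55 and -0.43), while no Con-FMT change between the sets is filled.

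The sets were compared within each treatment. A10-FMT of set 2 was lower than A10-FMT of set 1 for 6 of the 9 genes by limma, compared with 8.62% of all genes called lower. In the same comparison, 8 of 9 enterocyte markers (median -0.92) and 4 of 7 goblet cell markers (median -0.35) were lower, and all 7 genes of crypt proliferation (median 0.49) and 3 of 5 stem cell genes (median 0.31) were higher, compared with 21.8% of all genes called higher. Also lower were 2 of 6 genes of hormone-producing cells (median -0.22), 2 of 3 tested colon markers (median -0.38) and the 1 tuft cell gene tested (-0.55). Treh fell by 1.09 ± 0.15 on the log2 scale (adjusted p = 7.11e-05), Anpep by 0.88 ± 0.08 on the log2 scale (adjusted p = 7.75e-06), Dpp4 by 0.86 ± 0.18 on the log2 scale (adjusted p = 0.00207), Mep1b by 0.76 ± 0.10 on the log2 scale (adjusted p = 5.43e-05), Lct by 0.76 ± 0.22 on the log2 scale (adjusted p = 0.0143) and Enpep by 0.57 ± 0.14 on the log2 scale (adjusted p = 0.00596). Without overlap between the sets, 6 genes were lower in set 2, compared with 14.0% of all genes. Mep1a (-0.38 ± 0.21, adjusted p = 0.188), Sis (-0.15 ± 0.29, adjusted p = 0.706) and Mgam (0.05 ± 0.15, adjusted p = 0.814) were not called. The median of all genes tested moved the other way, by 0.12. Treh, Anpep, Dpp4 and Mep1b were called under all 34 settings. The call of Lct was lost in 4 settings, which were a replicate block (-0.69, adjusted p = 0.118), values relative to microvillus genes (-0.33, adjusted p = 0.0979), and leaving out A10-FMT replicate 3 of set 1 (-0.60, adjusted p = 0.0805) or A10-FMT replicate 2 of set 2 (-0.57, adjusted p = 0.0879).

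Con-FMT gave no call between the sets among the 9 genes, where limma called 0.00882% of all genes, with changes from -0.12 to 0.25. Mep1b (0.25 ± 0.10, adjusted p = 0.751) alone had an unadjusted p under 0.05 and was the 1 gene higher without overlap, compared with 6.25% of all genes. The 95% interval of the change was -0.04 to 0.31 in Anpep and -0.12 to 0.49 in Treh. A100-FMT gave no call either (0 of all genes), but all 9 changes were negative, from -0.40 to -0.09, and 3 of the 9 had an unadjusted p under 0.05. Without overlap, 6 of the 9 (Sis, Lct, Anpep, Enpep, Dpp4 and Mep1b) were lower in set 2, compared with 1136 of all 11337 genes. In Sa, 5 of the 9 were called higher in set 2, compared with 24.2% of all genes, and all 9 were higher without overlap, compared with 25.6%. The changes in Sis (1.14 ± 0.32, adjusted p = 0.0155) and Dpp4 (0.98 ± 0.20, adjusted p = 0.00951) were the largest, and Sa set 1 replicate 3 held both genes low. Mgam (0.71 ± 0.16, adjusted p = 0.00951), Enpep (0.65 ± 0.16, adjusted p = 0.0102) and Mep1b (0.56 ± 0.11, adjusted p = 0.00951) were the other calls. Without that library, which leaves 1 Sa library in set 1, these changes shrank to 0.29 in Sis, 0.42 in Dpp4, 0.28 in Mgam, 0.24 in Enpep and 0.33 in Mep1b. These calls therefore depended on it. With a replicate block in limma none of the 9 was called, with adjusted p from 0.104 in Dpp4 to 0.678 in Treh, 4 of the 9 at an unadjusted p under 0.05 and 0.132% of all genes called. Without replicate 3, all 9 were still above the remaining Sa library of set 1, as were 35.4% of all genes.

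The A10-FMT vs. Con-FMT change was then compared between the sets as a difference of differences, a test that was chosen after the data were seen. Neither group contains a Sa library. It was called for Treh (-1.27 ± 0.21, adjusted p = 0.000587), Anpep (-1.01 ± 0.12, adjusted p = 0.000115), Mep1b (-1.01 ± 0.14, adjusted p = 0.000233), Dpp4 (-0.96 ± 0.26, adjusted p = 0.0141) and Enpep (-0.67 ± 0.20, adjusted p = 0.0238), compared with 6.70% of all genes called lower, where the median of all genes was 0.13. Lct (-0.81 ± 0.31, adjusted p = 0.0703) and Mep1a (-0.46 ± 0.30, adjusted p = 0.293) were not called. The 95% interval was -0.96 to 0.76 in Sis and -0.26 to 0.60 in Mgam. The calls of Treh, Anpep and Mep1b were kept under all 34 settings, and that of Enpep under 27. The same difference for A100-FMT vs. Con-FMT gave no call in limma (0 of all genes), with an unadjusted p under 0.05 in 2 of the 9, Anpep (-0.44 ± 0.12, adjusted p = 0.149) and Mep1b (-0.55 ± 0.14, adjusted p = 0.145). For A100-FMT vs. A10-FMT, Treh (0.95 ± 0.21, adjusted p = 0.0194) and Anpep (0.57 ± 0.12, adjusted p = 0.018) were called, compared with 1.54% of all genes called higher.

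The effect of transfer itself was addressed by comparing each group with Sa. In set 2, where Sa had 3 libraries, Anpep fell in A10-FMT by 0.55 ± 0.08 on the log2 scale (adjusted p = 0.0226) and was the only call, where 0.335% of all genes were called lower. All 9 genes were below Sa in all A10-FMT libraries, compared with 11.4% of all genes. Lct (-0.73 ± 0.22, adjusted p = 0.135) had the largest change and Mgam (-0.25 ± 0.15, adjusted p = 0.464) the smallest, and Mep1b (-0.45 ± 0.10, adjusted p = 0.0507) was just outside the threshold. The call of Anpep was lost without Sa replicate 2 (adjusted p = 0.141), Sa replicate 3 (adjusted p = 0.0974) or A10-FMT replicate 2 (adjusted p = 0.177) of set 2. In A100-FMT vs. Sa no member was called (limma called 0.0353% of all genes, and 5 of the 9 had an unadjusted p under 0.05). Here 7 were below Sa without overlap, compared with 10.1% of all genes, among them Anpep (-0.37 ± 0.08, adjusted p = 0.108). In Con-FMT vs. Sa no member was called (0.0353% of all genes), 1 of the 9 had an unadjusted p under 0.05, and 2 were below Sa without overlap, compared with 10.9% of all genes. Without Sa set 1 replicate 3, the comparisons with Sa of set 2 gave 10 member calls in place of 1, among them Mep1b (-0.45, adjusted p = 0.00626), Treh (-0.61, adjusted p = 0.0358) and Dpp4 (-0.68, adjusted p = 0.00571) in A10-FMT. These were 5 of the 9 in A10-FMT, where 3.43% of all genes were called in either direction, and 5 in A100-FMT, where 5.09% were.

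In set 1 the comparisons with Sa rest on 2 libraries, 1 of which stands apart. With both, A10-FMT was higher for Sis, Treh, Anpep, Enpep, Dpp4 and Mep1b (13.6% of all genes were called higher), A100-FMT for Sis, Mgam, Enpep, Dpp4 and Mep1b (22.0%), and Con-FMT for Sis, Mgam and Dpp4 (17.7%). Without overlap, 5 of the 9 were above Sa in A10-FMT (13.9% of all genes), 5 in A100-FMT (22.0%) and 2 in Con-FMT (18.8%). Against Sa replicate 1 alone these counts were again 5 (22.2% of all genes), 5 (31.9%) and 2 (28.4%). The largest change was in Dpp4 in A10-FMT (1.15 ± 0.20, adjusted p = 0.00109). These comparisons share the Sa libraries and are not independent. Without Sa replicate 3, no call was left in A100-FMT or Con-FMT (0.238% and 0.00882% of all genes in either direction, with an unadjusted p under 0.05 in 2 and 1 of the 9), and A10-FMT (8.13%) kept Anpep (0.47, adjusted p = 0.0214), Dpp4 (0.60, adjusted p = 0.0197) and Mep1b (0.64, adjusted p = 0.00955). With the groups fitted alone or with array quality weights, none of the 14 calls against Sa of set 1 was made. The adjusted p of Anpep, Dpp4 and Mep1b in A10-FMT was 0.293, 0.297 and 0.246 with groups alone and 0.58, 0.545 and 0.545 with weights. The shares of all genes called in these fits are not given here, so the lost calls are no result about the 9 genes. With the column of the description, the calls in A10-FMT were Treh (0.96), Mep1b (0.88), Dpp4 (0.79), Anpep (0.75) and Enpep (0.49), those in A100-FMT were Dpp4 (0.55) and Mep1b (0.60), and there was none in Con-FMT, where 33.8%, 8.51% and 0.397% of all genes were called in either direction. Sis in A10-FMT went from 0.86 ± 0.32, adjusted p = 0.0495 to 0.02 without that library and to 0.09 with the description's column. Mgam in Con-FMT went from 0.73 ± 0.16, adjusted p = 0.0257 to 0.29 and 0.31. The calls in Sis and Mgam against Sa of set 1 therefore depended on this library, and that of Sis in A10-FMT was kept in only 6 of 34 settings. Averaged over both sets, limma called no member in any transfer group vs. Sa, compared with 0.132% of all genes in A10-FMT, 0.891% in A100-FMT and 0.750% in Con-FMT, with an unadjusted p under 0.05 in 1, 1 and 2 of the 9. The averages depended on which Sa library of set 1 was left out, and either choice leaves 1 Sa library in that set. Of these choices, only the loss of replicate 1 gave member calls, and calls of all genes then rose too.

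**Figure D4:**
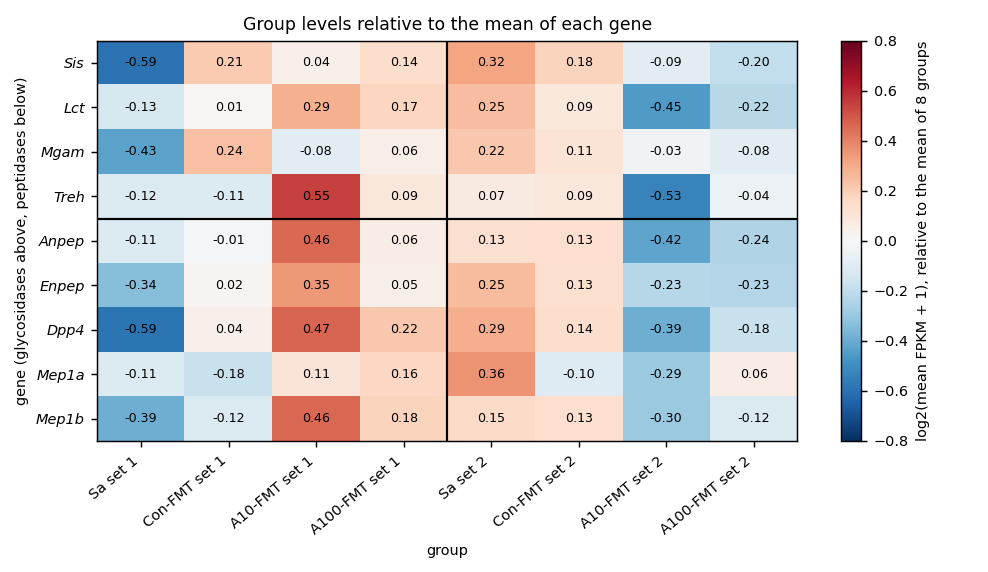
Level of each gene (rows) in each group (columns) as log2(mean FPKM + 1) minus the mean over the 8 groups, given in each cell and by colour. A10-FMT of set 1 is the highest column for Lct, Treh, Anpep, Enpep, Dpp4 and Mep1b (0.55 in Treh), and A10-FMT of set 2 is the lowest for Lct, Treh, Anpep and Mep1a (-0.53 in Treh).

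Sugar and peptide enzymes were also summed. The glycosidases summed to 535 ± 34.9 FPKM in A10-FMT and 537 ± 63.0 FPKM in Con-FMT of set 1 (SD, n = 3 each), so their sums differed by less than their spread. The peptidases summed to 2875 ± 284 FPKM in A10-FMT and 2087 ± 79.7 FPKM in Con-FMT of set 1. In set 2 the glycosidases summed to 427 ± 52.6 FPKM in A10-FMT and 533 ± 102 FPKM in Con-FMT, and the peptidases to 1622 ± 103 FPKM and 2312 ± 212 FPKM. Anpep, the most abundant gene, weighs most in the peptidase sums. The ratio of Anpep to Sis on the log2 scale was 3.27 to 3.52 in A10-FMT of set 1 and 2.57 to 3.04 in Con-FMT of set 1. An exact permutation test (two-sided) gave p = 0.1 for this difference, the smallest that 3 libraries against 3 allow, and an adjusted p of 0.667 over the 8 comparisons of this ratio. In set 2 both groups overlapped, with 2.24 to 3.02 in A10-FMT and 2.57 to 3.30 in Con-FMT (exact permutation p = 0.5). Against Sa the ratio of A10-FMT overlapped in both sets. Sa was 2.92 and 4.42 in set 1, the higher value in the library that stands apart (exact permutation p = 0.8), and 2.73 to 2.79 in set 2 (exact permutation p = 0.7).

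Across the 22 libraries without Sa set 1 replicate 3, the peptidases other than Mep1a varied together. Pearson's r of log2(FPKM + 1) was 0.93 for Anpep and Dpp4, 0.91 for Anpep and Mep1b, 0.90 for Enpep and Dpp4 and 0.89 for Dpp4 and Mep1b, with a median of 0.85 over all 10 pairs. The 4 pairs with Mep1a were the lowest, at 0.33 with Anpep, 0.39 with Enpep, 0.44 with Mep1b, the other subunit of meprin, and 0.47 with Dpp4. The 6 glycosidase pairs had a median of 0.41, with 0.81 for Sis and Mgam and -0.06 for Mgam and Treh. Treh was closer to Mep1b (0.89) and Anpep (0.86) than to any glycosidase, of which Lct was the nearest (0.72). The libraries share their groups, and the differences between groups enter these values. Within groups, r of Treh was 0.59 with Mep1b, 0.51 with Lct and 0.49 with Anpep, and that of Sis and Mgam was 0.90. For these values, the mean subtracted from Sa set 1 replicate 1 included replicate 3. The library that stands apart therefore still enters them. The within-group values of the peptidases were also lower, at 0.60 for Anpep and Dpp4 and 0.62 for Anpep and Mep1b. They were 0.63 for Dpp4 and Mep1b and 0.85 for Enpep and Dpp4. Dpp4 had within-group values of 0.77 with Mgam, 0.74 with Sis and 0.31 with Treh. Across the 22 libraries, without subtraction of group means, these pairs had 0.30, 0.53 and 0.83. Which genes are nearest within groups is therefore not read from these values.

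Genes with the most similar pattern over all 23 libraries, by Pearson's r, were Ggt1 (0.967), Tmem106a (0.943) and Apoa4 (0.940) for Treh. Ggt1 encodes gamma-glutamyltransferase, another brush-border enzyme. For Mep1b they included Krt20 (0.960) and Sema6a (0.955). For Dpp4 they were Gda (0.966), Cracd (0.962) and Asah2 (0.962), for Enpep Cracd (0.962), Cdh17 (0.958) and Gda (0.950) and for Anpep Plekhg6 (0.951), Mpp1 (0.943) and Unc5b (0.938). Among these, Krt20 encodes a keratin of mature villus cells. For Lct they were Vnn1 (0.874), Ace (0.872) and Hsd17b6 (0.865), for Mgam Pde4dip (0.950), Bach1 (0.945) and Edem3 (0.945), for Sis Mgam (0.934), Tent4b (0.933) and A1cf (0.920) and for Mep1a Gsdme (0.791), Nr1h4 (0.790) and Prss23 (0.790). Ace encodes a peptidase of the membrane. Without Sa set 1 replicate 3, the first gene was Ggt1 (0.967) for Treh, Cdhr2 (0.970) for Mep1b, Slc7a9 (0.935) for Dpp4, Sema6a (0.953) for Anpep, Slc43a2 (0.955) for Enpep, Rnf167 (0.910) for Lct, Edem3 (0.877) for Mgam, Tent4b (0.808) for Sis and Nbl1 (0.852) for Mep1a.

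Other enzymes of the brush border were followed in a list of 16 genes, of which 14 were tested. In A10-FMT vs. Con-FMT of set 1, limma called 10 higher and none lower, compared with 5.20% and 11.5% of all genes, with a median change of 0.65. In set 2, 3 were lower (0.370% of all genes) and none higher, with a median of -0.60. Between the sets, 13 of the 14 were lower in A10-FMT of set 2 (8.62% of all genes), with a median of -1.01. Alpi, intestinal alkaline phosphatase, was 470.2 to 549 FPKM in A10-FMT and 268 to 345 FPKM in Con-FMT of set 1, and rose (0.82, adjusted p = 0.000931). Ggt1 rose in set 1 (0.75, adjusted p = 0.000811) and fell in set 2 by 0.54 on the log2 scale (adjusted p = 0.0399), while Naaladl1, a relative of dipeptidases, rose in set 1 (0.48, adjusted p = 0.0294). Akp3, an alkaline phosphatase closely related to Alpi with which it may share reads, had the largest change of the called genes in set 1 (2.57, adjusted p = 0.00534), and in set 2 its change was -1.02, adjusted p = 0.494. Enpp3, which splits nucleotides, fell in set 2 by 1.12 on the log2 scale (adjusted p = 0.0399).

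Steps after the brush border were followed as well. Against the same shares of all genes, of 10 tested genes for amino acid and peptide transport, 7 were higher in A10-FMT vs. Con-FMT of set 1 (median 0.43) and 3 lower in set 2 (median -0.29). Slc6a19, the main transporter of neutral amino acids, rose in set 1 (1.16, adjusted p = 0.000256) and fell in set 2 by 0.84 on the log2 scale (adjusted p = 0.0315). Slc3a2 (0.34, adjusted p = 0.00347), Slc7a9 (0.34, adjusted p = 0.00542) and Slc7a7 (0.64, adjusted p = 9.71e-05), of the same list, rose in set 1. Of 7 cytosolic peptidases, 5 were higher in set 1 and none was called in set 2. Pepd, which splits dipeptides ending in proline, rose in set 1 (0.52, adjusted p = 0.00513), as did Cndp2 (0.48, adjusted p = 0.00365). Of 5 tested genes for sugar transport and fructose use, limma called none in either set. Slc5a1, the glucose transporter of the brush border, had 0.04, adjusted p = 0.835 in set 1 and -0.39, adjusted p = 0.129 in set 2.

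The scaffold of the microvilli had smaller medians than the other enzymes of the brush border, a difference that was not tested. Of 12 genes of microvillus structure, 5 were higher in A10-FMT of set 1 (5.20% of all genes, median 0.24) and 2 lower in set 2 (0.370% of all genes, median -0.20). Vil1, which encodes villin, rose in set 1 (0.31, adjusted p = 0.00268), and so did Espn, which encodes the bundling protein espin (0.89, adjusted p = 0.00142). Cdhr2, which links neighbouring microvilli, fell in set 2 by 0.45 on the log2 scale (adjusted p = 0.0315). The 9 genes were also expressed relative to the mean of these 12 genes in the same library, a setting chosen after the data were seen. On this scale, the change of A10-FMT between the sets was still called in Treh (-0.66, adjusted p = 0.000105), Anpep (-0.45, adjusted p = 3.38e-05), Dpp4 (-0.43, adjusted p = 0.0173) and Mep1b (-0.33, adjusted p = 0.000859). It was not called in Enpep (-0.14, adjusted p = 0.29) or Lct (-0.33, adjusted p = 0.0979), and Mgam was called higher (0.48, adjusted p = 0.00348). In A10-FMT vs. Con-FMT of set 1, Mgam was lower on this scale (-0.61, adjusted p = 0.00136), while Treh (0.37, adjusted p = 0.0146), Mep1b (0.29, adjusted p = 0.00487) and Anpep (0.17, adjusted p = 0.0448) stayed higher.

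**Figure D5:**
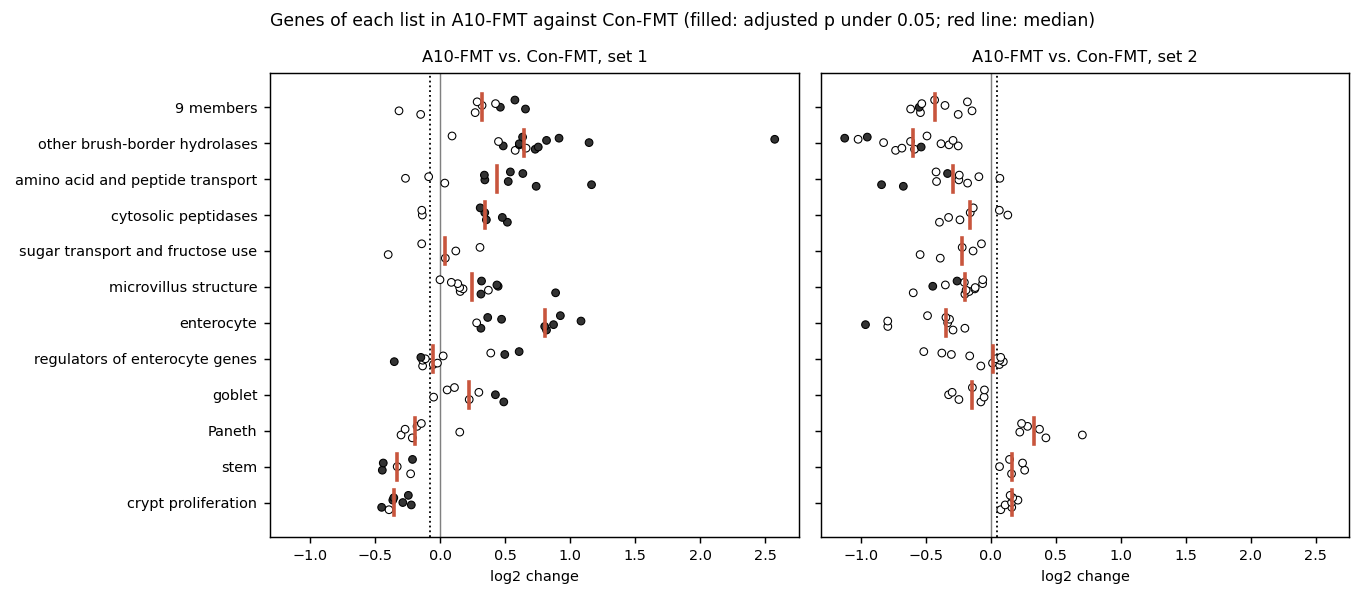
Log2 change (horizontal) of each tested gene in A10-FMT vs. Con-FMT in set 1 (left) and set 2 (right), by list, with filled points at an adjusted p under 0.05 in limma, red lines for medians and a dotted line for the median of all genes tested (-0.08 and 0.05). Medians of the 9 members are 0.32 and -0.43, and those of crypt proliferation are -0.36 and 0.16.

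Transcription factors that are known to act on enterocyte genes did not share a direction. Of 11 genes, 2 were higher and 2 lower in A10-FMT vs. Con-FMT of set 1, compared with 5.20% and 11.5% of all genes, and none was called in set 2. Hnf4a had -0.15, adjusted p = 0.0301 in set 1 and 0.08, adjusted p = 0.534 in set 2. Cdx1 (-0.14, adjusted p = 0.497) and Cdx2 (-0.05, adjusted p = 0.666) are the factors of the TTTAT motif. Klf4, which marks differentiated cells, rose in set 1 (0.61, adjusted p = 0.00259), where it was 51.4 to 59.7 FPKM in A10-FMT and 30.6 to 41.1 FPKM in Con-FMT. In set 2, Klf4 had -0.52, adjusted p = 0.0583.

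Markers of several cell types changed in the same comparisons as the 9 genes. Of 9 enterocyte markers, 8 were higher in A10-FMT vs. Con-FMT of set 1 (median 0.80), compared with 5.20% of all genes, and 1 was lower in set 2 (median -0.35), compared with 0.370%. Fabp2, which binds fatty acids, rose in set 1 (1.08, adjusted p = 0.00159), and Apoa4, an apolipoprotein, fell in set 2 by 0.96 on the log2 scale (adjusted p = 0.0315). Of 7 genes of crypt proliferation, 6 were lower in set 1 (median -0.36), compared with 11.5% of all genes called lower, with Top2a at -0.45, adjusted p = 0.02 and Pcna at -0.22, adjusted p = 0.0326, and none was called in set 2 (median 0.16). Their sum was 311 ± 9.03 FPKM in A10-FMT and 386 ± 15.8 FPKM in Con-FMT of set 1, and 419 ± 12.7 FPKM and 381 ± 22.6 FPKM in set 2 (SD, n = 3 each). Of 5 stem cell genes, 3 were lower in set 1 (median -0.33), against the same 11.5% of all genes, with Olfm4 at -0.45, adjusted p = 0.0476 and Smoc2 at -0.44, adjusted p = 0.00114. In A10-FMT vs. Sa of set 1, all 9 enterocyte markers were higher (13.6% of all genes). There, 4 of 7 crypt proliferation and 2 of 5 stem cell genes were lower (2086 of 11337 genes). For A10-FMT vs. Sa, set 2 minus set 1, the 9 enterocyte markers were lower (10.6%). In that difference, 5 of 7 crypt proliferation and 2 of 5 stem cell genes were higher (17.8%). Both comparisons contain Sa set 1 replicate 3.

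T cell, red blood cell and Paneth cell genes were called in some of the comparisons in which members were called. The 6 T cell genes summed to 41.6 ± 3.35 FPKM in A10-FMT and 145 ± 68.9 FPKM in Con-FMT of set 2 (SD, n = 3 each), and to 97.1 ± 29.4 FPKM and 77.7 ± 41.0 FPKM in set 1. None of the 5 tested was called in A10-FMT vs. Con-FMT of either set, where the median was -1.49 in set 2 with all 5 below 0. Without Sa set 1 replicate 3, 2 of the 5 were called lower in set 2, where 2.43% of all genes were called in either direction. Between the sets, Gzmb, a granzyme of cytotoxic cells, was lower in A10-FMT (-1.19, adjusted p = 0.0311). In the difference of differences for A10-FMT vs. Con-FMT, limma called 2 of the 5, Gzmb (-2.06, adjusted p = 0.0158) and Gzma (-2.03, adjusted p = 0.0275), and also Hba-a1, an alpha globin and the only red blood cell gene tested (-3.00, adjusted p = 0.0425), compared with 6.70% of all genes called lower. Of the 6 Paneth cell genes, 5 were lower in A100-FMT vs. Con-FMT (0.212% of all genes) and 5 in A100-FMT vs. A10-FMT of set 1 (1.71%), and 3 were higher in A10-FMT vs. Sa of set 2 (0.0882%). They were not called in A10-FMT vs. Con-FMT. With Sa of set 1, 5 were lower in A100-FMT vs. Sa (13.1% of all genes) and 6 in Sa of set 2 than of set 1 (13.9%), and neither comparison gave a Paneth call without Sa set 1 replicate 3, with medians of -1.20 and -1.25. For set 2 minus set 1, 5 were higher in A10-FMT vs. Sa (17.8%) and 5 in A100-FMT vs. Sa (13.3%), and 5 and 4 were without that library. Of 6 genes of hormone-producing cells, 4 were lower in A100-FMT vs. Con-FMT (median -0.50, 0.212% of all genes) and 3 in A100-FMT vs. A10-FMT of set 1 (median -0.49, 1.71%), among them Chgb, a granin of secretory granules (-0.83, adjusted p = 0.00579 and -0.62, adjusted p = 0.00916). In A10-FMT vs. Con-FMT of set 1, where 5.20% of all genes were called higher, 2 of 7 goblet cell genes, 1 of 6 hormone-cell genes, 1 of 3 tested colon markers and Trpm5, the only tuft cell gene tested (0.49, adjusted p = 0.0476), were higher. The part of these markers in the changes of the 9 genes was not tested.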

How the data were processed

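Per the file headers, the authors deposited 1 table of FPKM values for the series, on build mm10 per the labels. The study's methods describe read numbers scaled to gene length and sequencing depth. The aligner and counter are not given in the sources used here. Of 19215 entries, 17842 NCBI Gene numbers were present and 17725 matched a symbol. FPKM keeps no read total. Steps of the low values could be read in 1 to 11 genes per library, too few to give the relative depth, and depth is unknown.

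Libraries were grouped by treatment and set from their titles. The 11337 genes whose mean reached 1 FPKM were fitted with limma 3.58.1 in R 4.3.3 on log2(FPKM + 1), with 1 mean for each of 8 groups, a trend in the prior variance and Benjamini-Hochberg adjustment within each comparison. The fold changes understate those of low genes. The fitting code was tested on simulated data. The Anpep to Sis ratio was tested by exact permutation with scipy 1.17.1. Alternatives were a pseudocount of 0.1, other minimum levels, quantile and trimmed-mean scaling, array quality weights, groups fitted alone, a replicate block, adjustment for GC content and length, the description's column, values relative to microvillus genes and leaving out each library. Deviations of same-numbered libraries of different groups had r from -0.16 to 0.18 in set 1 and -0.35 to 0.32 in set 2. Other pairs had -0.23 to 0.23 and -0.35 to 0.37, so no sign of pairing by number was seen.

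The members and lists were chosen with earlier results of these data known. Named were all members, the 3 most abundant genes of a list and its called gene with the largest change in each family of comparisons, and the 3 genes most like a member. The values of 2 genes that this rule names are not reported here.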

Additional observations from a re-analysis of the deposited data

Results flagged for a closer look

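Changes that differed between the sets, by a test of the difference itself in limma, are given here as values for set 2 minus set 1 on the log2 scale. For A10-FMT vs. Con-FMT they were -1.27 in Treh, -1.01 in Anpep, -0.67 in Enpep, -0.96 in Dpp4 and -1.01 in Mep1b. For A100-FMT vs. A10-FMT they were 0.95 in Treh (adjusted p = 0.0194) and 0.57 in Anpep (adjusted p = 0.0180), where 1.54% of all genes were called higher.

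Against Sa, more genes differed. For A10-FMT vs. Sa, 8 of the 9 were called, compared with 10.6% of all genes called lower, with -1.29 in Sis, -1.15 in Lct, -0.66 in Mgam, -1.27 in Treh, -1.12 in Anpep, -1.22 in Enpep, -1.83 in Dpp4 and -1.32 in Mep1b. For A100-FMT vs. Sa, 6 were called, compared with 13.5% of all genes, with -1.48 in Sis, -0.85 in Mgam, -0.54 in Anpep, -0.92 in Enpep, -1.37 in Dpp4 and -0.86 in Mep1b. For Con-FMT vs. Sa none was called in limma, where 0.00882% of all genes were called and 5 of the 9 had an unadjusted p under 0.05. All of these contain Sa set 1 replicate 3, the library whose levels followed GC content. Without it, 7 calls against Sa were made in place of 14, where 20.4% of all genes were called in either direction for A10-FMT and 4.10% for A100-FMT. They were -1.25 in Treh, -1.02 in Anpep, -0.81 in Enpep, -1.28 in Dpp4 and -1.09 in Mep1b for A10-FMT, and -0.81 in Dpp4 and -0.63 in Mep1b for A100-FMT. The values that were no longer called were -0.45 in Sis, -0.90 in Lct and -0.23 in Mgam for A10-FMT, and -0.64 in Sis, -0.42 in Mgam, -0.44 in Anpep and -0.52 in Enpep for A100-FMT.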

How the results depend on the processing

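Over 34 alternatives, the 52 called changes of members gave 1768 values, of which 1767 kept their direction and 1561 their call. The exception in direction was Mgam in A10-FMT vs. Sa, set 2 minus set 1, at 0.0099 relative to microvillus genes (adjusted p = 0.967). Calls of members counted 14 for transfer vs. Sa in set 1, 1 for the same in set 2, 0 for the average of the sets, 4 between transfer groups in set 1 and 1 in set 2, 11 between the sets, 14 for the difference of the transfer effect between sets, and 7 for that between transfer groups, added after seeing the data. In this order, leaving out 1 library gave 3 to 18, 0 to 10, 0 to 14, 3 to 10, 0 to 7, 9 to 15, 7 to 20 and 4 to 11, where without Sa set 1 replicate 3 the counts were 3, 10, 0, 10, 7, 9, 7 and 11, and without Sa set 1 replicate 1 they were 18, 10, 14, 10, 7, 15, 20 and 11. In either case the lone Sa library is assumed to vary like the other groups. Without A10-FMT set 2 replicate 2, both set 2 counts were 0 and the last was 4. For vs. Sa in set 1, the count was 0 with groups fitted alone, 0 with quality weights, 7 with the description's column and 6 relative to microvillus genes. For vs. Sa in set 2, it was 2 with a pseudocount of 0.1, 0 with all genes above 0, 2 with a minimum of 5 FPKM, 2 with trimmed-mean scaling, 4 with groups alone, 13 with quality weights, 7 with the description's column, 6 with GC content and length, and 5 relative to microvillus genes. Between transfer groups in set 1, it was 2 with quantile normalization, 11 with quality weights, 8 with the description's column and 8 with GC content and length. Between them in set 2, it was 0 with all genes above 0, 2 with a minimum of 5 FPKM, 3 with trimmed-mean scaling, 0 with groups alone, 9 with quality weights, 3 with the description's column, 4 with GC content and length, and 3 relative to microvillus genes. Between the sets, it was 6 with groups alone. The difference of the transfer effect gave 6 with groups alone, 0 with quality weights and 9 relative to microvillus genes, and that between transfer groups gave 14 with quality weights. Fitting the replicate number as a block gave 15, 1, 0, 4, 0, 5, 15 and 7. No sign was seen that the numbers pair the libraries. In set 1, r was over 0.1 in 4 of 15 same-numbered pairs and in 7 of 30 other pairs. In set 2, it was in 6 of 18 and in 11 of 36. With 2 or 3 libraries a group, this check is weak. Shares of all genes called are not given with the counts of member calls, which describe the settings and not the members. The causes of these changes were not tested. Groups of 2 or 3 libraries, and an unknown depth, limit what can be called.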

Other observations

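Genes of regions of the small intestine were also followed. Of 6 tested proximal markers, 3 were higher in A10-FMT vs. Con-FMT of set 1 (5.20% of all genes), none was called in set 2, and 3 were lower in A10-FMT of set 2 than of set 1 (8.62% of all genes). S100g, a calcium-binding protein of the duodenum, had the largest of these changes at 3.23 in set 1 (limma, adjusted p = 0.00119). Of 5 tested distal markers, 3 were also higher in set 1 and 4 were lower between the sets, against the same shares. Slc10a2, the bile acid transporter of the ileum, had 1.12 in set 1 (limma, adjusted p = 0.0290).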
